A study of Mus musculus with 8 samples.

Results

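The genes described here are the semaphorins, ephrins, Slits and netrins of the mouse trachea at embryonic stage E13.5, together with their receptors. Members were every gene whose symbol named a semaphorin of classes 3 to 7, a plexin, a neuropilin, a Slit, a Robo, a netrin, an Unc5 receptor, an Eph receptor or an ephrin. This gave 68 of the 23478 gene symbols, and all 68 stood in both count tables. They fell into 12 families, from 2 neuropilins to 13 semaphorins outside class 3.

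RNA was sequenced from whole tracheas and from sorted tracheal cells. The trachea set held 1 library with the genotype Wls flox/flox, ShhCre+ (Wls is needed to secrete Wnt proteins, and Shh-driven Cre acts in the airway epithelium) and 2 Cre-negative Wls flox/flox control libraries. The sorted set held 2 libraries of Bmp4flox/flox, Foxg1Cre+, γSMAeGFP tracheas and 3 of Bmp4flox/flox, γSMAeGFP controls, so all 5 carried the floxed Bmp4 and the smooth muscle reporter. The labels call the sorted cells chondroblasts, and they were cells negative for the epithelial protein Epcam and for the smooth muscle GFP. Separate embryos or litters are not named in the labels, so a p-value here reflects the spread among these libraries, possibly technical spread alone.

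Guidance genes were named for steering growing axons, and the same proteins pattern vessels, cartilage and epithelia. Class 3 semaphorins are secreted and act through neuropilins with plexins, except Sema3e, which binds Plxnd1 directly. Slits repel cells through Robo receptors. Netrins attract through Dcc and Neo1 and repel through Unc5 receptors. Ephrins stay on the cell surface and signal to Eph receptors on the neighbouring cell, and the receptor can signal back through the ephrin.

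Levels are given as CPM, a gene's counts scaled to a common library total that was adjusted by trimmed mean of M-values (TMM) factors. A gene is said to have risen or fallen, or to be past the test, where edgeR's quasi-likelihood test gave an adjusted p under 0.05 (Benjamini-Hochberg, over every gene tested in its table). Library totals were 24596836 to 31399982 counts in the trachea and 48876948 to 55492747 in the sorted controls, but 12964287 and 15462780 in the Bmp4 mutants. The targeted genes moved with their labels: Wls stood at 65.8 CPM in the Wls mutant against 153 and 146 CPM, and Bmp4 at 24.1 and 32.2 CPM in the Bmp4 mutants against 124, 99.2 and 121 CPM. Cartilage markers summed to 516 CPM in the Wls mutant against 1601 and 1301 CPM in its controls, with 7 of 7 tested markers past the test, all lower. Airway epithelial markers summed to 1104 CPM against 792 and 643 CPM, with 6 of 9 higher. Endothelial markers summed to 370 CPM against 467 and 508 CPM, with 1 of 9 past the test, Cdh5, lower. Smooth muscle markers summed to 2674 CPM against 1954 and 1613 CPM, with 2 of 7 higher, and skeletal muscle markers to 437 CPM against 482 and 363 CPM, with 4 of 7 higher. In a bulk sample, fewer cells of a type and less RNA per cell cannot be told apart, and the part of these marker shifts in the results below was not tested.

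In both tissues the highest levels per length belonged to receptors and ephrins. In the control tracheas, Plxnb2, a plexin for class 4 semaphorins, led with 59.8 CPM per kb of exon. Ephb4 followed at 56.6 CPM per kb, Nrp1 at 48.1, Efnb1 at 45.2 and Ephb3 at 42.4. In the sorted control cells, Efnb1 led with 79.2 CPM per kb, followed by Nrp1 at 71.8, Efna4 at 50.9, Plxnb2 at 49.4 and Ephb4 at 43.7. The order within these top groups is not firm, since the sorted controls ran from 171 to 302 CPM for Efnb1 and from 198 to 319 CPM for Nrp1. Unc5c, a repulsive netrin receptor, was sixth in both tissues with 30.0 CPM per kb in the trachea and 30.1 in the sorted cells. The tables come from different kits and were normalized apart, so these levels were not compared by a test. Plxnd1, known from endothelium, ranked 8 in the trachea at 26.0 CPM per kb and 51 in the sorted cells at 1.17.

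**Figure D1:**
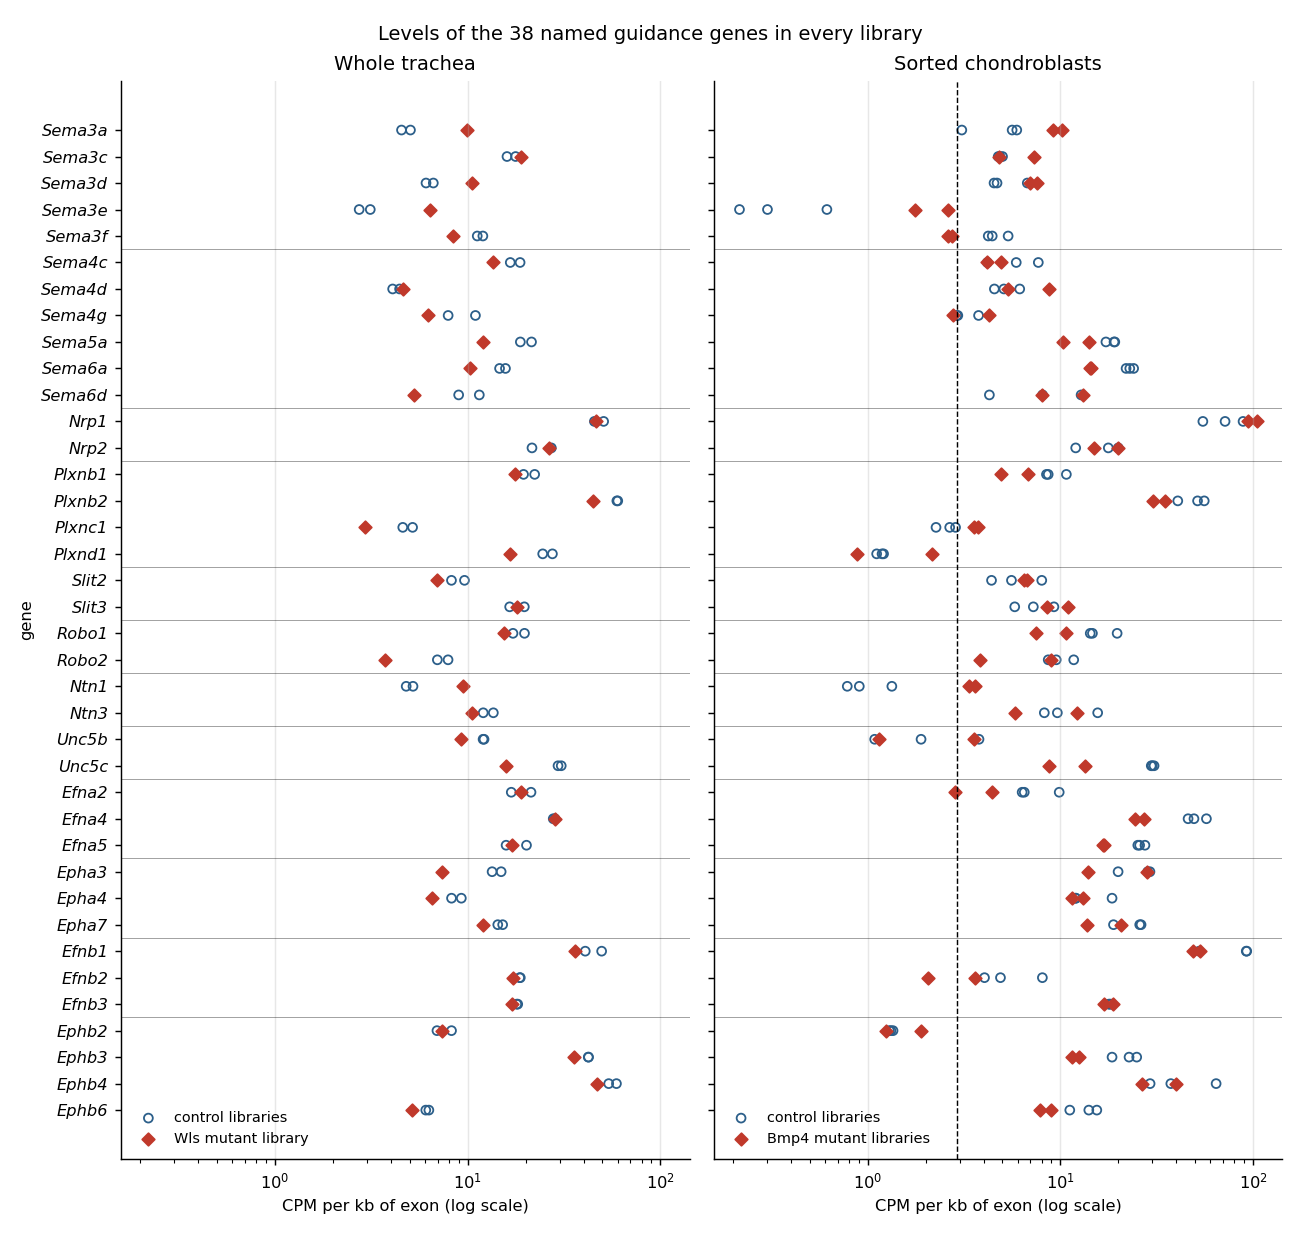
Level of the named guidance genes in every library, in CPM per kb of exon on a log axis, with the trachea on the left and the sorted cells on the right; open circles are control libraries and filled diamonds are mutant libraries. The dashed line at 2.92 CPM per kb marks the background limit, which was set against a gene's mean over the 5 sorted libraries and not against single points.

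In the Wls mutant trachea, 4 secreted guidance ligands rose and 9 guidance genes fell. The 4 were Sema3e, Sema3a, Sema3d and Ntn1. Those that fell were the receptors Robo2, Epha3, Unc5c, Plxnc1 and Plxnd1 and the transmembrane semaphorins Sema6d, Sema5a, Sema4g and Sema6a. Over all 15815 genes tested, 1.88% were called higher and 2.39% lower. Of the 67 guidance genes tested, 49 had a negative and 18 a positive fold change, with a median log2 fold change of -0.26 beside -0.01 over all genes tested. The mutant lay below both controls for 41 of these 67 genes and above both for 12, where all tested genes lay below in 37.6% and above in 36.9%. The remaining member, Ntn5, was at 0.287 CPM against 0.0374 and 0.249 CPM and was not tested.

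The class 3 semaphorins, which are secreted repellents, gave 3 of the 4 rises. Sema3e, the Plxnd1 ligand, was at 43.6 CPM in the Wls mutant against 21.4 and 18.8 CPM in the controls (log2 fold change 1.12 ± 0.18 SE, adjusted p = 8.4e-07). Sema3a, the Nrp1 ligand, was at 62.0 CPM against 28.3 and 31.5 CPM (1.05 ± 0.18, adjusted p = 1.9e-06). Sema3d was at 66.5 CPM against 41.9 and 38.4 CPM (0.73 ± 0.17, adjusted p = 0.0024). For each of the 3 genes the mutant value stood clear of both controls. The family did not move as one. Sema3c, the class 3 member with the highest level in the trachea, was at 104 CPM against 97.4 and 87.9 CPM (0.16 ± 0.17, adjusted p = 0.77). Sema3f, the Nrp2 ligand, was at 29.2 CPM against 39.1 and 41.9 CPM (-0.47 ± 0.19, adjusted p = 0.16), and Sema3b and Sema3g also lay below both controls without passing the test. Summed over the 7 genes, class 3 semaphorins made up 319 CPM in the mutant and 248 and 243 CPM in the controls.

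The 3 genes that rose are neighbours in the genome. On build mm10, Sema3d, Sema3a and Sema3e lie in this order on chr5:12383385-14256689, a stretch of 1.87 Mb. That stretch holds 4 annotated genes among those in the tables. The fourth, Speer3, had 0 counts in all 3 tracheas. Sema3c, on the same chromosome outside the stretch, did not pass the test.

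Their start sites are shown because the 3 rose together, beside that of Plxnd1, the Sema3e receptor, which fell. Each line gives the 250 bases before the RefSeq start on build GRCm38.p6, 5′ to 3′ on the gene's strand. None of these windows overlaps an exon of the GENCODE M21 annotation. The Sema3a window lies inside the annotated gene, which starts at chr5:13125414, and the bases before that start were not searched. The other windows lie before the annotated start of their gene. Capitals mark matches to 3 motifs searched on both strands: CTTTGA, the core of TCF/LEF sites, and GGCGCC and CAGAC, which SMAD proteins can bind. No other motif searched contains or overlaps CTTTGA.
Sema3d, chr5:12382916-12383165, plus strand: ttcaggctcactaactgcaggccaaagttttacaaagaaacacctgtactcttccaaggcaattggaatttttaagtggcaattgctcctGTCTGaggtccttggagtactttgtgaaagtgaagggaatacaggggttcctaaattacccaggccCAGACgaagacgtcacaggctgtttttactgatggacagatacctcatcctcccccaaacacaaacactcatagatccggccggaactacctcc
Sema3a, chr5:13396534-13396783, plus strand: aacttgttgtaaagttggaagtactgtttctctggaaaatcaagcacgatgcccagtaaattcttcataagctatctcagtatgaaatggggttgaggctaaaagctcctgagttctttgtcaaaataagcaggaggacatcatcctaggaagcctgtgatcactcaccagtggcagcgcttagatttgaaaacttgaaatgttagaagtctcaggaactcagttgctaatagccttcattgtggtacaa
Sema3e, chr5:14025026-14025275, plus strand: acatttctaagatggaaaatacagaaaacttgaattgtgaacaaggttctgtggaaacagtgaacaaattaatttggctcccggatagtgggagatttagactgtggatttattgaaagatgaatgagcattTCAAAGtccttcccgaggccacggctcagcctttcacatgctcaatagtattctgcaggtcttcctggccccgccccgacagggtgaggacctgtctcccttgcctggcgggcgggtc
Plxnd1, chr6:115995006-115995255, minus strand: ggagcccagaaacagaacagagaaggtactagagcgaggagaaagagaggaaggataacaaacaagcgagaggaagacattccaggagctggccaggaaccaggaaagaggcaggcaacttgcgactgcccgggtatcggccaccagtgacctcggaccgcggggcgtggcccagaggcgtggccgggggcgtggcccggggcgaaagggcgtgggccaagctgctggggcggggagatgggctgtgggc
Sema3e held 1 match to CTTTGA, seen as its reverse complement, and Sema3d held 2 matches to CAGAC, while Sema3a and Plxnd1 held none of the 3 motifs. Over 32851 RefSeq promoters of this length, 13.8% held CTTTGA, 42.2% held CAGAC and 9.59% held GGCGCC. GC content was 46.8% for Sema3d, 40.8% for Sema3a and 48.0% for Sema3e, all below the median of 52.4% over all promoters, and 64.8% for Plxnd1. Of the 68 guidance genes, 59 had a promoter in the RefSeq table.

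Netrins gave the fourth rise. Ntn1, the main attractant netrin, was at 54.0 CPM in the Wls mutant against 29.9 and 27.5 CPM (0.91 ± 0.18, adjusted p = 7.3e-05). Ntn3 was at 53.3 CPM against 68.5 and 60.7 CPM (-0.28 ± 0.18, adjusted p = 0.52). Ntn1 thus stood above both controls and Ntn3 below both. In controls Ntn3 was the higher of the pair, with 12.8 CPM per kb against 5.004 for Ntn1, while in the mutant their CPM were alike.

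All 4 Unc5 receptors, which take netrins, had negative fold changes, and Unc5c passed the test. Unc5c was at 153 CPM in the mutant against 286 and 297 CPM (-0.93 ± 0.19, adjusted p = 2.8e-04). Its paralogue Unc5b was at 54.3 CPM against 70.6 and 71.4 CPM (-0.39 ± 0.18, adjusted p = 0.27). Both lay below their controls, but the controls of each gene differed by far less than the mutant differed from them. The family sum was 212 CPM against 360 and 374 CPM, most of it Unc5c.

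Of the Slits and Robos, 1 gene fell. Robo2, a Slit receptor, was at 31.9 CPM in the mutant against 68.0 and 59.9 CPM (-1.0 ± 0.19, adjusted p = 3.3e-05). Robo1 was at 116 CPM against 130 and 149 CPM (-0.26 ± 0.18, adjusted p = 0.55). The endothelial Robo4 was at 10.4 CPM against 14.9 and 16.0 CPM (-0.57 ± 0.23, adjusted p = 0.18). All 4 Robos had negative fold changes, and Robo2 was the one past the test. Among the ligands, Slit2 was at 69.8 CPM against 82.7 and 96.6 CPM (-0.36 ± 0.18, adjusted p = 0.32), and Slit3 at 94.4 CPM lay between its controls of 86.4 and 103 CPM.

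Semaphorins outside class 3 are membrane-bound and often act as receptors too. Sema6d was at 37.8 CPM against 64.6 and 82.7 CPM (-0.96 ± 0.19, adjusted p = 6.0e-05). Sema5a, with the thrombospondin repeats of its class, was at 130 CPM against 203 and 232 CPM (-0.75 ± 0.19, adjusted p = 0.0042). Sema4g was at 28.2 CPM against 36.04 and 49.96 CPM (-0.61 ± 0.19, adjusted p = 0.041), and Sema6a at 70.7 CPM against 100 and 108 CPM (-0.56 ± 0.18, adjusted p = 0.046). In each case the mutant was below both controls. Calls for the last pair were weak: DESeq2 gave adjusted p = 0.45 for Sema4g and 0.19 for Sema6a, and with no filter on low counts edgeR gave 0.064 for Sema6a. Of the 13 genes, 9 had negative fold changes, and the family sum was 443 CPM in the mutant against 608 and 682 CPM. Sema4c, high in the trachea, was at 57.7 CPM against 70.9 and 79.7 CPM (-0.39 ± 0.18, adjusted p = 0.27).

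Plexins, the semaphorin receptors, had negative fold changes in 8 of 9 cases, and 2 passed the test. Plxnd1 was at 114 CPM in the mutant against 169 and 190 CPM (-0.66 ± 0.18, adjusted p = 0.015), while its ligand Sema3e rose. Plxnc1, the Sema7a receptor, was at 21.3 CPM against 33.7 and 37.8 CPM (-0.75 ± 0.19, adjusted p = 0.0067), a call that DESeq2 did not make (adjusted p = 0.11). Plxnb2 was at 290 CPM against 391 and 387 CPM (-0.42 ± 0.20, adjusted p = 0.29). The summed plexins stood at 850 CPM against 1042 and 1143 CPM. The 9 endothelial markers had a median log2 fold change of -0.39, from -0.61 for Cdh5 to 0.02 for Emcn, beside the -0.66 of Plxnd1, and their part in it was not tested. Neuropilins, the co-receptors of class 3 semaphorins, overlapped their controls: Nrp1 was at 166 CPM against 164 and 183 CPM, and Nrp2 at 273 CPM against 224 and 282 CPM.

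Eph receptors and ephrins gave 1 call. Epha3, a receptor for A-type ephrins, was at 41.8 CPM in the mutant against 75.9 and 84.5 CPM (-0.94 ± 0.18, adjusted p = 7.1e-05). Both other EphA receptors with high levels lay nearer to their controls: Epha4 was at 41.1 CPM against 52.2 and 58.7 CPM (-0.43 ± 0.18, adjusted p = 0.21), and Epha7 at 91.2 CPM against 109 and 115 CPM (-0.29 ± 0.18, adjusted p = 0.47). The highest Eph receptor, Ephb4, was at 204 CPM against 259 and 236 CPM (-0.28 ± 0.19, adjusted p = 0.55). None of the 8 ephrins passed edgeR's test. At an unadjusted p under 0.05, 1 was lower, beside 2255 of all 15815 genes tested, in either direction. Efna4 stayed between 44.5 and 45.4 CPM in all 3 tracheas, Efnb3 was at 54.2 CPM against 57.9 and 57.3 CPM, and Efnb1 at 117 CPM against 162 and 133 CPM.

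**Figure D2:**
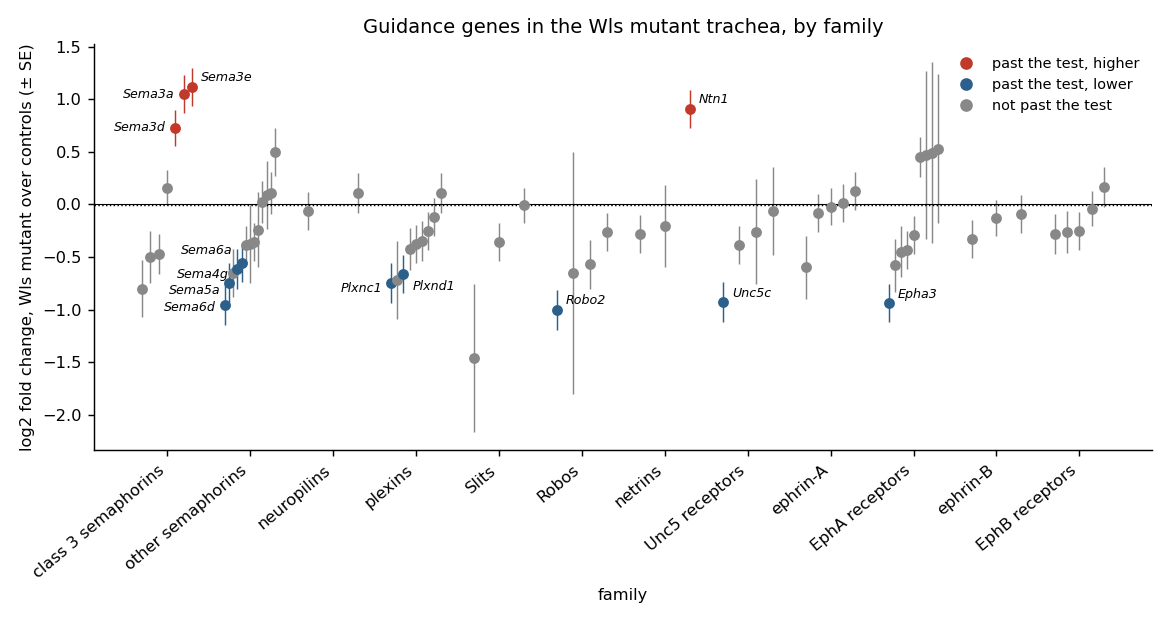
Log2 fold change of each tested guidance gene in the Wls mutant trachea over its 2 controls (vertical axis, bars are SE from edgeR), by family. Red points rose, blue points fell and grey points did not pass the test; the dotted line is the median of all genes. The 4 red points are Sema3a, Sema3d, Sema3e and Ntn1, and plexins, Robos and Unc5 receptors lie almost all below 0.

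**Figure D3:**
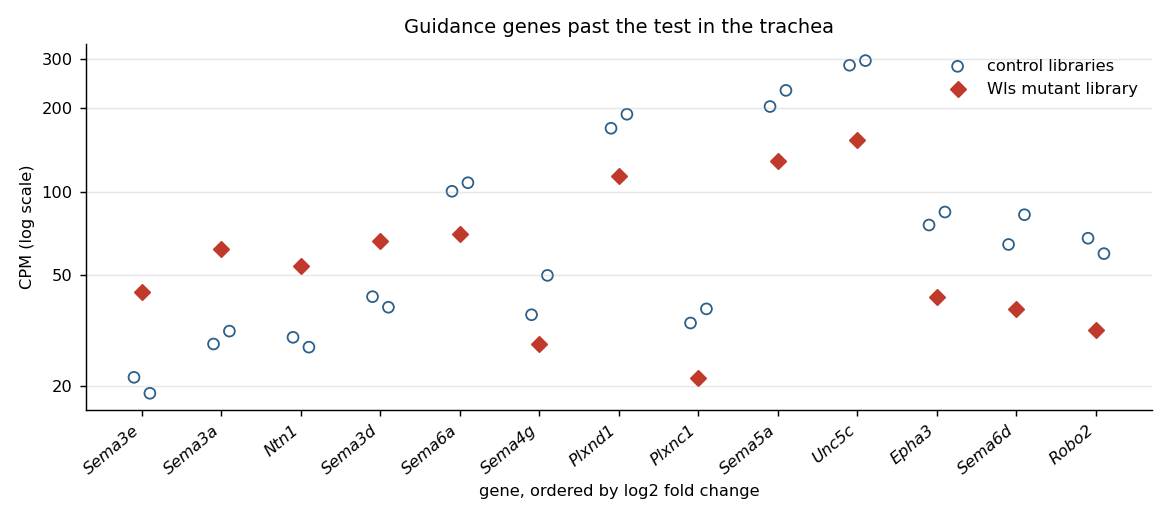
CPM on a log axis of the 13 guidance genes past the test in the trachea, ordered by log2 fold change; open circles are the 2 controls and diamonds the Wls mutant. In every gene shown the mutant lies outside the range of the controls, which adds little to calls made on the same values. Of all genes tested, the mutant lay above both controls in 36.9% and below both in 37.6%.

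With 1 mutant library, the test had 1 residual degree of freedom and assumed that the mutant varied like its controls. A rule of size was therefore read as well: a difference of at least 1 in log2 CPM, the mutant farther from the controls than they were from each other, and log2 CPM averaging 3 or more. Sema3e and Sema3a passed it, 2 of the 68 guidance genes, where 0.253% of all genes were past it higher and 0.493% lower. The other 11 genes past the test missed a difference of 1 on this scale, Robo2 by the least.

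In the sorted cells, most guidance genes called higher lay within the range of a background in the Bmp4 mutant libraries, so this background is given first. Over 4157 genes with 0 counts in every control library, the mutants held 21.3 and 19.7 counts per kb of exon. That is 1.64 and 1.27 CPM per kb, or 10.9% and 8.46% of all counts if it lay evenly over all exons. Members with a mean over the 5 libraries under 2.92 CPM per kb, which is 2 times the mean mutant background, were called below the background. There were 23 such members and 45 above. Mutant 1 also held 10.53% of its counts in the embryonic globin Hbb-y, against 0.0914% in mutant 2 and at most 0.754% in the controls. Cartilage markers summed to 469 and 1262 CPM in the mutants against 5444, 3319 and 2544 CPM. Smooth muscle markers summed to 1491 and 216 CPM against 122 to 157 CPM, and endothelial markers to 280 and 204 CPM against 44.0 to 157 CPM. Fibroblast markers summed to 11926 and 13597 CPM against 6780 to 10504 CPM, and leukocyte markers to 285 and 270 CPM against 169 to 209 CPM, with 2 of 7 higher in each list after background subtraction. The part of these shifts in the values below was not tested.

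On the deposited counts, 18 of the 68 guidance genes were called higher in the Bmp4 mutants and 12 lower, where 39.3% of all 21665 tested genes were called higher and 15.6% lower. The median log2 fold change was 0.19 for guidance genes and 0.53 for all genes. Of all 8507 genes called higher, 838 were above the background. Of the 18 guidance genes called higher, 17 were below it. The limit was set on a mean over all 5 libraries, so a gene that rises from low controls falls below it more readily. How rises and falls divide at the limit therefore follows in part from how it was set. Among these 17, Robo3 was at 14.3 and 5.38 CPM in the mutants and at most 0.457 CPM in the controls. From background alone, 7.46 CPM were expected in mutant 1 and 5.35 CPM in mutant 2. Ntn1, which rose in the trachea, was at 20.7 and 19.3 CPM against 5.20, 4.5 and 7.67 CPM, with 8.92 and 6.40 CPM expected. With the background subtracted, Ntn1 stood at 17.05 and 16.62 CPM against 4.893, 4.322 and 7.392 CPM. Its mutants held 3.615 and 3.355 CPM per kb, but its controls averaged 1.009, which put it below the limit. Sema3e was at 18.0 and 12.1 CPM against 1.48, 2.07 and 4.22 CPM, with 10.7 and 7.66 CPM expected. All 23 members below the background lay within the 95th percentile of the silent genes in both mutants, and their mutant values were not read as expression. So did 8 of the 45 above it (Efnb2, Plxna2, Plxnc1, Sema3b, Sema3f, Sema4a, Sema4f and Sema4g), so their mutant values lay within the range of the silent genes as well. Among the 45 above it, 1 was called higher and 12 lower, where 7.77% of genes above the background were called higher and 29.8% lower. Scaling the libraries on genes above the background moved the median of all genes from 0.53 to 0.85 and that of genes above the background from -0.33 to -0.01. On that scale 26 guidance genes were called higher, 8 of them above the background, and 3 lower (Unc5c, Efna4 and Ephb3), where 44% of all genes were called higher and 5.02% lower. The share called among all genes above the background was not computed on that scale.

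With the background subtracted, edgeR called none of the 45 guidance genes above it higher and 1, Unc5c, lower, where 2.93% of the genes tested were called higher and 1.18% lower. At an unadjusted p under 0.05, 7 of the 45 were higher and 7 lower, beside 14.3% and 11.1% of the genes tested. The median log2 fold change was -0.05 for the 45 genes and -0.01 for all genes tested.

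**Figure D4:**
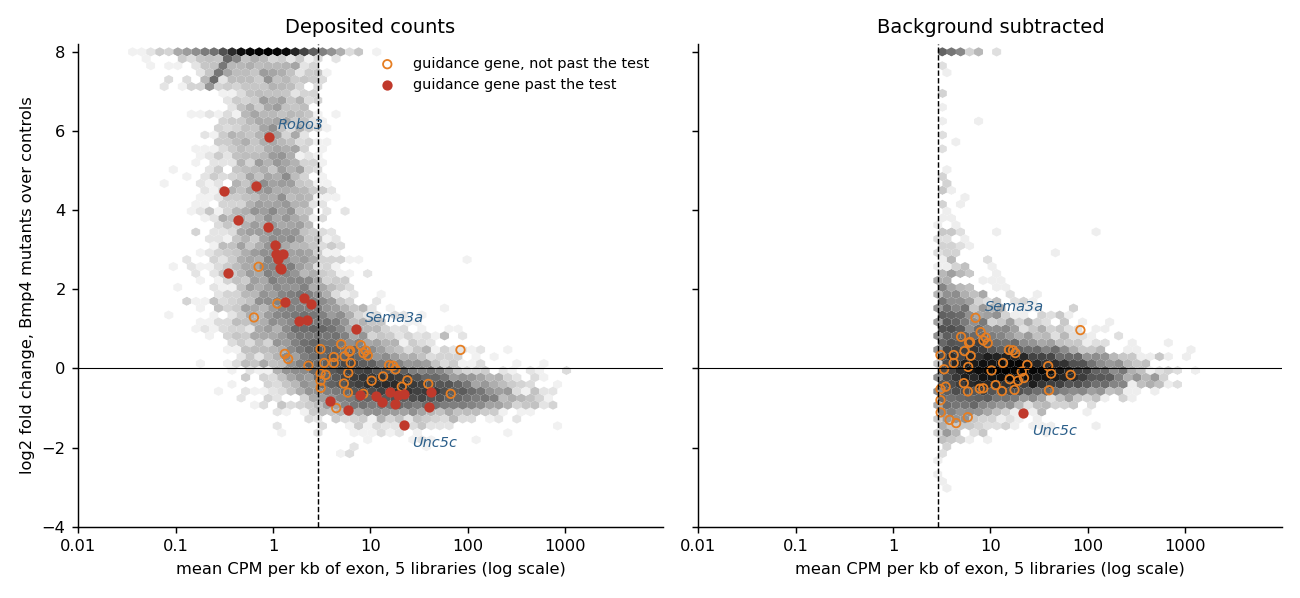
Log2 fold change in the sorted Bmp4 mutants over controls against the mean level per kb over 5 libraries (log axis), on deposited counts at left and with the background subtracted at right; grey hexagons are all genes tested, darker for more genes, and values over 8 are drawn at 8. Circles are guidance genes, filled where past the test; left of the dashed line at 2.92 CPM per kb nearly all lie high, and Unc5c is the filled circle that remains at right.

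Unc5c fell on deposited counts, on the rescaled counts and with the background subtracted. It was at 85.0 and 130 CPM in the Bmp4 mutants against 291, 298 and 288 CPM in the controls, with both mutants far below a narrow control range. The log2 fold change was -1.44 ± 0.21 (adjusted p = 0.0033) on deposited counts and -1.13 ± 0.21 (adjusted p = 0.045) with the background subtracted. On deposited counts the call held with each library left out in turn. With the background subtracted it did not hold without mutant 1 (-0.86, adjusted p = 0.085) or without any one control (-1.11 to -1.14, adjusted p = 0.13 to 0.14). The 2 mutants also differed from each other by more than the 3 controls did.

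Sema3a was the member above the background that rose on deposited counts. It was at 57.3 and 63.6 CPM in the mutants against 19.2, 35.03 and 37.0 CPM, so the groups did not overlap. The log2 fold change was 0.99 ± 0.28 (adjusted p = 0.021), and 1.28 ± 0.30 (adjusted p = 0.073) with the background subtracted. The call was lost without control 2 (adjusted p = 0.053), without mutant 1 (0.091) or without mutant 2 (0.11). Its co-receptor Nrp1 was at 376 and 339 CPM against 198, 319 and 258 CPM (0.47 ± 0.22, adjusted p = 0.11; subtracted 0.97 ± 0.24, adjusted p = 0.076). Sema3d was at 47.5 and 44.1 CPM against 28.6, 42.5 and 29.6 CPM (0.45 ± 0.21, adjusted p = 0.11; subtracted 0.67 ± 0.23, adjusted p = 0.14). For Nrp1 and Sema3d, too, both mutants lay above every control, by little. Summed class 3 semaphorins were at 170 and 185 CPM in the mutants against 108, 139 and 129 CPM.

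The other 11 genes called lower on deposited counts had log2 fold changes from -1.06 (Efna2) to -0.59 (Plxnb2), beside -0.33 for the median gene above the background. For each of the 11 both mutants lay below all 3 controls, which adds little to calls made on the same values. The share of all genes with groups apart in this way was not computed. They included 3 A-type ephrins. Efna4 was at 38.9 and 43.7 CPM against 91.7, 73.6 and 79.0 CPM (-0.98 ± 0.16, adjusted p = 0.0033), and Efna5 at 67.4 and 68.1 CPM against 111, 104 and 102 CPM (-0.64 ± 0.13, adjusted p = 0.0060). Efna2, at low level, was at 6.06 and 9.40 CPM against 21.03, 13.9 and 13.51 CPM. With the background subtracted none of the 3 passed the test: Efna4 gave -0.55 (adjusted p = 0.088), Efna5 -0.24 (0.25) and Efna2 -1.23 (0.17).

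Among Eph receptors, Ephb3 was at 52.0 and 48.0 CPM against 104, 77.7 and 95.2 CPM (-0.89 ± 0.17, adjusted p = 0.0046; subtracted -0.54, adjusted p = 0.12). Ephb6, which lacks kinase activity, was at 33.8 and 29.5 CPM against 52.9, 58.2 and 42.1 CPM (-0.69 ± 0.19, adjusted p = 0.019; subtracted -0.42, adjusted p = 0.26). Both were below all controls as deposited. Epha3, which fell in the trachea, was at 78.5 and 159 CPM against 113, 161 and 165 CPM, with the groups overlapping. Its fold change of -0.30 (adjusted p = 0.43) was 0.09 (adjusted p = 0.90) after subtraction.

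The remaining genes of this group were receptors and semaphorins. Robo1 was at 56.6 and 80.6 CPM against 149, 111 and 108 CPM (-0.84 ± 0.22, adjusted p = 0.016; subtracted -0.57, adjusted p = 0.18). Plxnb1, the receptor of Sema4d, was at 58.8 and 42.6 CPM against 92.9, 73.3 and 74.8 CPM (-0.67 ± 0.20, adjusted p = 0.024; subtracted -0.51, adjusted p = 0.21). Plxnb2 was at 228 and 197 CPM against 363, 335 and 265 CPM (-0.59 ± 0.19, adjusted p = 0.033; subtracted -0.13, adjusted p = 0.71). Sema5a was at 111 and 152 CPM against 186, 205 and 207 CPM (-0.60 ± 0.18, adjusted p = 0.026; subtracted -0.27, adjusted p = 0.37). Sema6a was at 98.7 and 97.6 CPM against 151, 157 and 165 CPM (-0.68 ± 0.14, adjusted p = 0.0057; subtracted -0.31, adjusted p = 0.20). Sema3f was at 9.13 and 9.51 CPM against 14.7, 15.5 and 18.7 CPM (-0.81 ± 0.28, adjusted p = 0.041; subtracted -1.30, adjusted p = 0.084). With a library left out in turn, deposited counts kept the call in all 5 fits for Efna4, Efna5, Ephb3, Sema6a and Unc5c. They kept it in none for Efna2 and Sema3f, and in 1 to 4 for Robo1, Plxnb1, Plxnb2, Ephb6 and Sema5a.

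Of the members of the sorted cells given next, all but Efnb2 overlapped between groups. Efnb1 was at 158 and 173 CPM in the mutants against 301, 302 and 171 CPM. Ephb4 was at 117 and 175 CPM against 281, 164 and 128 CPM, and Nrp2 at 155 and 207 CPM against 125, 208 and 184 CPM. Efnb3 was near level at 60.0 and 53.9 CPM against 57.5, 58.5 and 56.8 CPM. Slit3 was at 57.3 and 44.9 CPM against 30.3, 48.4 and 37.9 CPM, and Slit2 at 64.6 and 67.7 CPM against 44.1, 80.3 and 55.9 CPM. Robo2, which fell in the trachea, was at 32.9 and 76.7 CPM against 100.9, 81.8 and 74.4 CPM, low in mutant 1 and level in mutant 2. Efnb2, the Ephb4 ligand, was at 17.3 and 9.91 CPM against 19.4, 23.5 and 38.7 CPM, below all controls without passing the test.

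The 2 experiments used separate controls, so their fold changes can be set side by side for the 45 members above the background, with subtracted values for the sorted cells. The direction was the same for 31 of the 45 (68.9%), where it was the same for 50.2% of all 10509 genes tested in both. Among the 45 were the 8 members whose mutant values lay within the range of the silent genes. The share without these 8 was not computed. Of the 10 called in the trachea, 7 had the same direction (70%), as had 69.7% of the 399 such genes overall. The 7 were Sema3a and Sema3d, higher in both, and Unc5c, Robo2, Sema5a, Sema6a and Sema4g, lower in both. Sema4g, however, was at -0.02 in the sorted cells. Its mutant values lay within the range of the silent genes, so it counts among the 7 by a sign that cannot be relied on. Unc5c passed the test in both experiments, at -1.13 in sorted cells and -0.93 in the trachea. Sema6d, Plxnc1 and Epha3 had opposite signs, with 0.64, 0.34 and 0.09 in the sorted cells and none of the 3 past the test there. Plxnc1 counts among the 45 only through its mutants, at 3.56 and 3.74 CPM per kb against a control mean of 2.60. Both mutant values lay within the range of the silent genes, so its sign in the sorted cells was not read. Whether a gene's effect differed between the experiments was not tested.

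**Figure D5:**
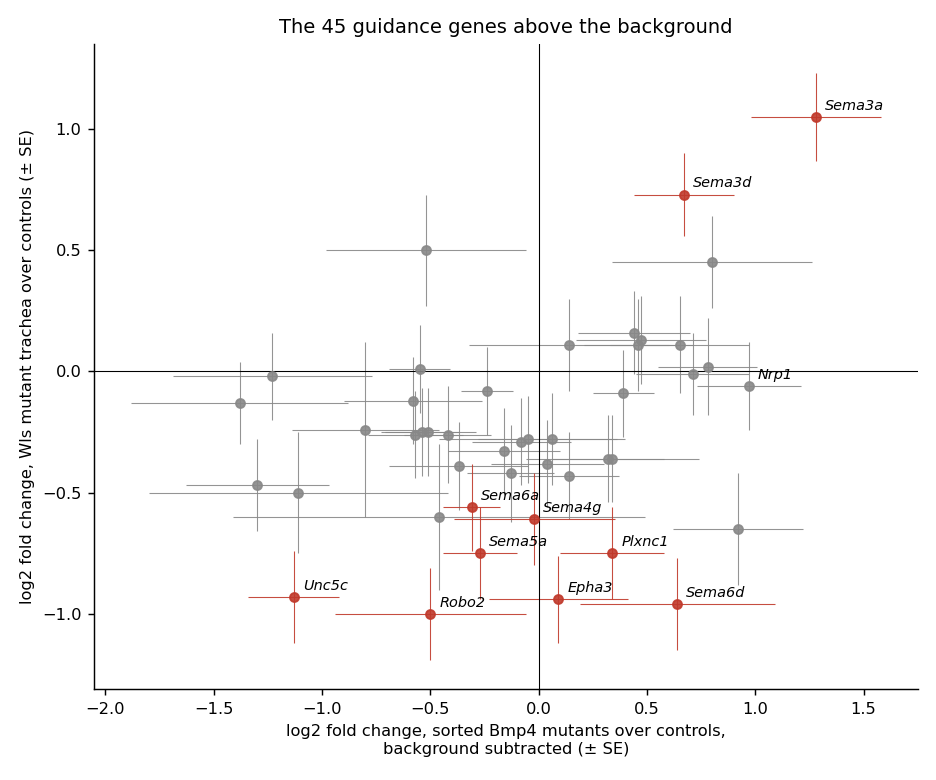
Log2 fold change of the 45 guidance genes above the background in the sorted Bmp4 mutants, background subtracted (horizontal axis), and in the Wls mutant trachea (vertical axis), with SE bars. Red points passed the test in the trachea; Sema3a and Sema3d lie at upper right and Unc5c at lower left.

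The wider pathway was read from 78 genes that the symbols above do not name. They were listed as 21 co-receptors and other receptors, 8 other ligands and 49 cytoplasmic effectors. These lists are loose: the receptor Ackr3 stood with the effectors, and Flrt2, an Unc5 ligand, with the receptors. In the trachea, 2 of 77 tested rose and 3 fell, with a median log2 fold change of -0.07, beside 1.88% and 2.39% of all genes. Crmp1, a relay of Sema3a signalling to the cytoskeleton, was at 115 CPM against 37.4 and 36.8 CPM (1.62 ± 0.17, adjusted p = 3.5e-15), and the chemokine-binding receptor Ackr3 at 73.1 CPM against 43.2 and 41.3 CPM (0.79 ± 0.17, adjusted p = 6.4e-04). Dpysl3, of the same family as Crmp1, fell from 80.1 and 109 CPM to 51.4 CPM (-0.88 ± 0.18, adjusted p = 2.5e-04). The Unc5 ligand Flrt2 was at 283 CPM against 472 and 469 CPM (-0.73 ± 0.21, adjusted p = 0.017), and Flrt1 at 4.30 CPM against 7.40 and 10.01 CPM (-1.02 ± 0.30, adjusted p = 0.029). Crmp1 and Dpysl3 thus moved in opposite directions.

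In the sorted cells, 25 of the 78 pathway genes were called higher and 14 lower on deposited counts, beside 39.3% and 15.6% of all genes. With the background subtracted, 3 of 54 were higher and 2 lower, beside 2.93% and 1.18%. L1cam, a neural adhesion protein and Nrp1 partner, was at 46.6 and 45.2 CPM against 15.9, 25.7 and 14.3 CPM (subtracted 1.58 ± 0.29, adjusted p = 0.044). Dpysl5 was at 48.6 and 45.8 CPM against 18.7, 28.3 and 19.0 CPM (subtracted 1.38 ± 0.24, adjusted p = 0.041), and Crmp1 had a subtracted value of 1.28. Neuronal markers summed to 767 and 891 CPM in these mutants against 442, 715 and 366 CPM, and their part in these rises was not tested. Farp1, a plexin effector, was at 42.6 and 44.7 CPM against 99.3, 96.7 and 116 CPM (subtracted -0.97 ± 0.14, adjusted p = 0.030). Hs6st1, the other gene lower after subtraction, was at low level, 8.47 and 7.02 CPM against 14.5, 12.5 and 15.8 CPM (subtracted -1.84 ± 0.34, adjusted p = 0.045). Rnd1 and Rnd2, small GTPases that bind plexins, had the largest deposited changes among the pathway genes above the background, 2.90 and 1.93, and neither passed the test after subtraction (adjusted p = 0.096 and 0.052).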

How the data were processed

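RNA sequencing was done on 3 whole-trachea and 5 sorted-cell libraries. The authors deposited raw counts per gene symbol, 1 table per experiment, with 1 column per library. Whether a library pooled several embryos is not given in the labels. Per the submitters' processing notes, Bowtie2, Cufflinks, DESeq and build mm10 were used, with Trim Galore for the sorted cells. What counted the reads, on which annotation and with which strand setting, is not given in the sources used here. Overlapping antisense genes therefore cannot be told apart. Per the labels' protocols, sorted cells were amplified with SMART-Seq v4 and tracheas with Ovation RNA-Seq v2, both with Nextera XT libraries.

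Each table was fitted on its own with edgeR 4.0.16 in R 4.3.3: TMM scaling, the filterByExpr filter by group, the quasi-likelihood test, and Benjamini-Hochberg adjustment over all genes tested. No table was tested against the other. Replicate libraries differed by more than counting noise, with a chi-square per degree of freedom of 23.5 to 185, and none was merged. The fits were tested on simulated data. Without molecular identifiers, counting error is the least error a value can have.

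For the sorted cells, a background was measured as counts per kb of exon over genes at 0 in every control, and subtracted by exon length, rounded and with a floor of 0. Exon lengths were unions of GENCODE M21 exons of transcripts linked to RefSeq, or of the basic set where none was linked, and 22114 genes had one. The limit for a gene above the background was 2 times the mean mutant background, and 10790 genes passed it. Alternatives were DESeq2 1.42.0, limma-voom (limma 3.58.1), other scalings, no filter, a replicate block and leaving out each library.

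The members and lists were chosen with earlier results of these data known. Genes named were those called above the background in the sorted cells with the same sign after subtraction. Those called or past the rule of size in the trachea were named too. So were the 2 highest per family and table by control CPM per kb, and partners in 12 known ligand and receptor pairs. The 5 pathway genes with the largest change among those called and above the background were also named. Crmp1, Farp1, Hs6st1, the pathway gene counts after subtraction, Sema3b, Sema3g, Robo3 and Robo4 were named after their values were seen.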

Additional observations from a re-analysis of the deposited data

How the results depend on the processing

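The trachea counts (4 higher, 9 lower) stayed within 1.5 times under DESeq2 size factors, DESeq2 and no low-count filter, and the rule of size gave 2 or 3 genes. Fold changes of the 13 genes kept their sign under all settings run, and counts without one control were not computed because no residual degree of freedom is left. In the sorted cells, 18 higher and 12 lower became 0 and 1 with the background subtracted, 0 and 0 with a limit of 4 times the background (chosen after seeing the data), and 3 lower when scaled on genes above the background. At an unadjusted p under 0.05, the limit of 4 left 7 higher and 5 lower of 32 members. Beside them stood 1819 of all 8329 genes tested, in either direction. Leaving out each library in turn, on deposited and on subtracted counts (the latter chosen after seeing the data), gave 0 to 18 higher and 0 to 10 lower. On deposited counts, the count higher was 2 without mutant 1, and the count lower was 7 without mutant 1 and 7 without control 2. The causes were not tested.

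With the replicate block, edgeR called 0 members higher and 0 lower, and 4 genes of all 21665 tested. At an unadjusted p under 0.05, 17 of the 68 members were higher and 12 lower. Beside them stood 9833 of all 21665 genes, in either direction. Same-numbered libraries did not deviate together (correlation -0.164 over 21665 genes and -0.313 over the 10783 above the background). That check sets a single difference between mutants against a single difference between controls. It cannot tell whether the numbers pair the samples, and the labels do not say.

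Some sorted-cell fold changes changed sign. Epha3 was 0.00 when scaled on genes above the background, 0.09 subtracted and 0.12 with the limit of 4, and ran from -0.90 to 0.49 with a library left out. Sema4g was -0.02 subtracted and ran from -0.53 to 0.42. With a library left out, Plxnb2 ran from -0.72 to 0.07, Robo2 from -1.51 to 0.09 and Sema6d from -0.06 to 1.06. Mutant library depth (12964287 and 15462780 counts) and the background limit what can be read of members under 2.92 CPM per kb.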
